A study of Mus musculus with 6 samples.

Results

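A list of 31 genes linked to autism or intellectual disability, taken from chromatin regulation, transcription, growth signalling, protein turnover and neuropeptide reception with synaptic scaffolds and channels left out, was followed in the hippocampus of mice with a chromosome 11 duplication. Of these, 28 were measured among 18193 genes in all, where a gene is read by its brightest probe set (highest mean of the 6 arrays, no second gene in its annotation). Adnp shared its 1 probe set with Dpm1 and was left out by that rule, and Ash1l and Setbp1 had no probe set under their own symbol in the annotation used and were not analysed here. There were 3 duplication mice (Dp(11)17/+), heterozygous for an added copy of a segment of chromosome 11, and 3 wild-type mice (+/+). By their labels all 6 were C57BL/6-Tyr c-Brd males aged 11 to 14 weeks, with 1 Affymetrix array of hippocampal RNA per mouse. The line models Potocki-Lupski syndrome, according to the title of the series. That is a human developmental disorder in which autistic features are common. The labels do not say how many founder lines or litters the mice came from, so litter and genotype cannot be told apart. None of the 28 genes lies in the duplicated segment between Cops3 and Rnf112. Kdm6b and Bcl11a are on the same chromosome, with 90 and 312 protein-coding genes between them and the segment, and Fmr1 is the 1 member on the X chromosome.

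Many genes linked to autism and intellectual disability encode proteins that open, close or mark chromatin. Remodellers such as the CHD proteins and the BAF complex move nucleosomes, and histone methyltransferases place marks that activators and repressors read. Others act on growth and protein balance: the TSC complex restrains the kinase mTOR, FMRP holds back translation of neuronal mRNAs, and the ubiquitin ligases UBE3A and cullin 3 direct proteins to degradation. Several of these genes act by dose, since loss of a single copy, or for some an extra copy, is known to cause disease in humans.

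Promoters of 21 of the 28 genes were found in a table of RefSeq promoters on GRCm38.p6, in which each window runs from 250 bases before to 50 after a start site. The 26 windows of these genes held a median of 27.5 CpG dinucleotides, with a range of 1 to 56, against a median of 7 over 32851 windows of all genes. Their median GC content was 68.0% against 52.7%. The motif TATAAA, searched on both strands, was present in 2 of the 26 windows, 1 of Avpr1a and 1 of Ctnnb1, and in 13.6% of all windows. Of the windows, 3 are printed 5′ to 3′ with each CpG in capitals. Met and Oxtr are shown because they had the widest spread between mice among the members found in that table, and Kmt2a as a CpG-rich promoter of a chromatin gene. Windows of the chromatin genes differed, from 1 CpG in Setd5 and 16 in Pogz to 56 in Kmt2c. The Met window is chr6:17463707-17464006 on the plus strand with 34 CpGs, the Oxtr window chr6:112489776-112490075 on the minus strand with 20, and the Kmt2a window chr9:44881240-44881539 on the minus strand with 36. The windows describe the genes only, since the arrays do not measure promoter use.
Met: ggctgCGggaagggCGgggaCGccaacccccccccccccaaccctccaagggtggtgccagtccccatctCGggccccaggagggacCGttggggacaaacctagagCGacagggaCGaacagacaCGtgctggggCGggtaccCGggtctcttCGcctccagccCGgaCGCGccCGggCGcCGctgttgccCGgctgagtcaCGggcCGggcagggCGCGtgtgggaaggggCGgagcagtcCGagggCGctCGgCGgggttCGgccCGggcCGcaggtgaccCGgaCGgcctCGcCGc
Oxtr: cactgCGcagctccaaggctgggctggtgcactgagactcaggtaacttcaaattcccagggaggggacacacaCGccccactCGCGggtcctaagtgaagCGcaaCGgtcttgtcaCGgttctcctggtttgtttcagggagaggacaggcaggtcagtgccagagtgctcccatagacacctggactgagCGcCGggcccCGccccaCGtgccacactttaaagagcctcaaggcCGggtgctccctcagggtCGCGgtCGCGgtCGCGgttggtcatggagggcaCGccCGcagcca
Kmt2a: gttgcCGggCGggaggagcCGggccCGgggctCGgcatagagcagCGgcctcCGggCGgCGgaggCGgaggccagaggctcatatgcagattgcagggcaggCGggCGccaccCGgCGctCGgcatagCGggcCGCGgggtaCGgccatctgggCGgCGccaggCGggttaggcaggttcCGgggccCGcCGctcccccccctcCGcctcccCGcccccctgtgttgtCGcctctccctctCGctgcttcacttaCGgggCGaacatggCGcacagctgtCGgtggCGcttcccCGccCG

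Some arrays stood apart before any comparison. Duplication replicate 1 had a log2 value of 9.13 for Xist, which is transcribed from the inactive X of females, against 3.06 to 3.69 in the other mice, and values of 2.48 and 2.47 for the Y-linked Eif2s3y and Kdm5d, against 5.41 to 6.01 and 4.70 to 5.06. That library goes against its sex label. Markers of hippocampal fields were present on all arrays, with mean log2 values of 6.01 to 7.68 over 10 CA1 markers and 5.02 to 6.96 over 13 dentate markers. Relative to the wild-type mean, 15 striatal markers averaged 1.76 and 17 markers of thalamus and habenula 2.34 in duplication replicate 3, with CA1 markers at -1.46 and dentate markers at -1.30. The same means, in the order striatum, thalamus, CA1 and dentate, were 0.99, 0.05, -0.48 and -0.65 in duplication replicate 1 and -0.18, -0.14, 0.20 and 0.64 in duplication replicate 2. A wild-type array varied too: replicate 1 lay 1.91 above that mean for 10 choroid plexus markers and 0.39 above it for 10 oligodendrocyte markers. Results without 1 of the 6 mice are therefore given for several members below. In the labels' protocols other organs and pooled material are mentioned, whereas the record of every sample gives hippocampus and a single individual, and the records were followed.

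The comparison asked whether these genes differ in level between duplication and wild-type hippocampus. No member differed past the test: limma, with Benjamini-Hochberg adjustment over all 45037 probe sets, called 0 of 28, and the smallest adjusted p among them was 0.994. Over all genes the same test called 0%. At an unadjusted p under 0.05 the count was also 0 of 28, against 3.17% of all genes, and the plain equal-variance statistic gave 0 as well, against 3.78%. The smallest unadjusted p was 0.133, for Bcl11a. Of the 28, 17 had a higher mean in duplication mice and 11 a lower one; the median log2 fold change was 0.04, with an interquartile range of -0.06 to 0.12. Over all genes 41.7% were higher and the median was -0.02. No member had all 3 duplication mice on one side of all 3 wild-type mice, a pattern seen in 8.29% of all genes.

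Read by the brightest probe set of each gene, most of these differences were bounded. In 23 of the 28 genes the whole 95% confidence interval of the log2 fold change lay within 1.5-fold in either direction (-0.58 to 0.58), the ratio an added gene copy gives, as it did for 85.6% of all genes. The 5 others were Foxp2, Met, Oxtr, Tbr1 and Ube3a, whose intervals reached beyond it. The bound does not extend to every probe set of a gene. Of the 66 probe sets other than the brightest, 17 had an interval not inside 1.5-fold, against 5877 of all 45037 probe sets. Among the 17 were probe sets of Kmt2c (-0.24 to 0.74), Ankrd11 (-0.23 to 0.72) and Tcf4 (-0.64 to 0.42). Of the 28 genes, 7 had a mean log2 value under 6 and 3 of these, En2, Met and Avpr1a, one under 4, close to the array medians of 3.74 to 3.79. For such dim probe sets an array may register less than the true difference.

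**Figure D1:**
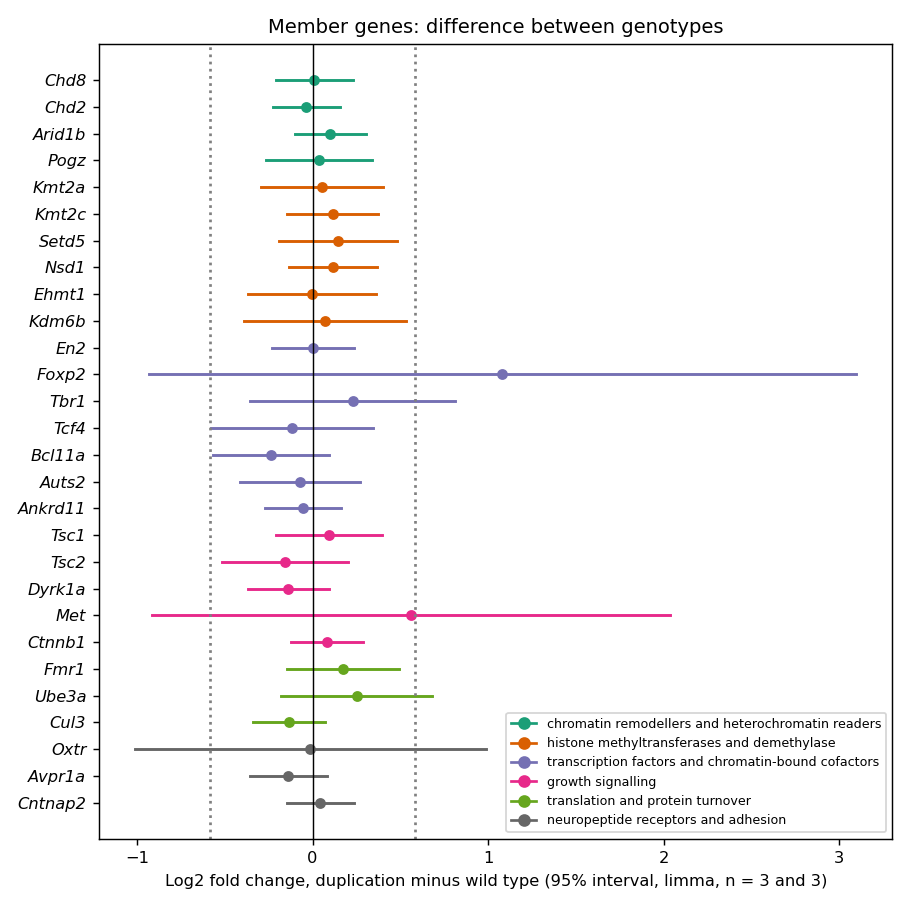
Log2 fold change of each of the 28 measured members, duplication minus wild type, as a point with its 95% confidence interval (limma, 3 mice per group), coloured by role; dotted lines mark 1.5-fold in either direction. All 28 intervals hold 0, 23 lie between the dotted lines, and Foxp2, Met and Oxtr have the widest intervals.

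Among the chromatin remodellers and heterochromatin readers, 4 genes were measured and the log2 fold changes ran from -0.03 to 0.10. Chd8, a helicase that restrains beta-catenin target genes and is among the most often mutated genes in autism, had log2 values of 8.25, 8.0 and 8.04 in duplication replicates 1, 2 and 3 and of 8.13, 8.06 and 8.08 in wild-type replicates 1, 2 and 3. The wild-type mice lay between duplication replicates 1 and 3, and the log2 fold change was 0.01 (SE 0.09, adjusted p = 0.998 by limma). Chd2, a remodeller whose loss causes childhood epilepsy, had values of 6.68, 6.80 and 6.63 in duplication and 6.73, 6.75 and 6.73 in wild-type mice. Here the duplication mice again lay on both sides of a narrow wild-type range, and the log2 fold change was -0.03 (SE 0.08, adjusted p = 0.994). Arid1b, the DNA-binding subunit of the BAF remodelling complex, had a log2 fold change of 0.10 (interval -0.10 to 0.30), and Pogz, a zinc finger protein that binds heterochromatin, of 0.04 (-0.27 to 0.34).

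The histone-modifying enzymes gave 5 of 6 log2 fold changes above 0, with a median of 0.09 and the largest at 0.15. Setd5, a SET domain protein of transcriptional elongation and chromatin silencing, had that value. Its log2 values were 7.25, 6.81 and 7.31 in duplication and 6.96, 7.08 and 6.90 in wild-type mice. Duplication replicate 2 was the lowest of the 6 mice and the other duplication mice were the highest, so the groups overlapped (log2 fold change 0.15, SE 0.14, adjusted p = 0.994). Leaving out 1 mouse at a time gave Setd5 values from 0.05 to 0.30. Kmt2a, which methylates histone H3 at lysine 4, had values of 7.32, 6.94 and 7.0 in duplication and 7.26, 7.02 and 6.82 in wild-type mice. Its log2 fold change was 0.06 (SE 0.15, adjusted p = 0.994), and the sign turned without duplication replicate 1 (-0.06) or wild-type replicate 3 (-0.05). Kmt2c, its relative at enhancers, had values of 7.47, 7.75 and 7.39 in duplication and 7.45, 7.36 and 7.46 in wild-type mice. Duplication replicate 2 alone stood above the rest, and the log2 fold change was 0.11 (SE 0.11, adjusted p = 0.994). Nsd1, a methyltransferase for lysine 36 of histone H3 whose loss causes Sotos syndrome, had a log2 fold change of 0.12 (interval -0.13 to 0.37). Kdm6b, a demethylase that removes the Polycomb mark, had 0.07 (-0.39 to 0.53), with all 3 duplication mice inside the wild-type range of 6.37 to 7.14. Ehmt1, a methyltransferase for lysine 9 whose loss causes Kleefstra syndrome, had a log2 fold change of 0.00 (-0.37 to 0.36), again with every duplication mouse inside the wild-type range.

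The transcription factors included the member with the widest range over the mice. Foxp2, a forkhead factor of speech and motor circuits that is strongly expressed in striatum, thalamus and deep cortex, had log2 values of 5.31, 3.41 and 6.84 in duplication and 3.97, 5.12 and 3.22 in wild-type mice. The range of 3.62 over the 6 mice, or 12.3-fold, was the widest of the 28 members, and only 0.159% of all genes had a larger spread within groups. Duplication replicate 3 stood highest and duplication replicate 2 second lowest, so the group means of 5.19 ± 1.72 and 4.10 ± 0.96 (SD, n = 3) overlapped, and the log2 fold change of 1.08 (SE 0.86, adjusted p = 0.994) had an interval of -0.93 to 3.10. Among wild-type mice, replicate 2, with the highest Foxp2, also had the highest mean of striatal markers, 0.39 above the wild-type mean, and of thalamic markers, 0.21 above it. The log2 fold change was 0.26 when duplication replicate 3 was left out, 1.97 when replicate 2 was, and -0.08 with a regional score as a covariate. That score is the mean of the striatal and thalamic markers minus the mean of the CA1 and dentate markers. It was highest in duplication replicate 3, at 1.44, and next in duplication replicate 1, at -0.90. Every other array lay at -1.64 or lower. With 6 arrays the score thus overlaps with genotype, and the covariate cannot separate tissue from genotype. In bulk RNA, more cells of a type and more RNA per cell cannot be told apart. The part of neighbouring tissue in the Foxp2 values was not tested.

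Tbr1, a T-box factor of cortical projection neurons, had log2 values of 5.78, 5.26 and 6.35 in duplication and 5.55, 5.64 and 5.51 in wild-type mice. Duplication replicate 3 was highest, as for Foxp2, and duplication replicate 2 was the lowest of the 6 mice, and the log2 fold change of 0.23 (SE 0.25, adjusted p = 0.994) became -0.05 when replicate 3 was left out and 0.50 when replicate 2 was. Means of 10 markers of cortical layers were 0.16, -0.24 and 0.27 from the wild-type mean in the 3 duplication mice. The markers were split, with 5 higher and 5 lower in duplication mice and a median log2 fold change of -0.0006. Bcl11a, a zinc finger factor that works with the BAF complex and whose loss causes an intellectual disability syndrome, had values of 8.13, 8.61 and 8.19 in duplication and 8.52, 8.48 and 8.65 in wild-type mice. Duplication replicates 1 and 3 lay below every wild-type mouse and duplication replicate 2 among them. The log2 fold change was -0.24 (SE 0.14, adjusted p = 0.994), and -0.10 with the regional score. Leaving out 1 mouse at a time gave values from -0.39, without duplication replicate 2, to -0.15. Tcf4, a basic helix-loop-helix factor whose loss causes Pitt-Hopkins syndrome, was picked out after its values were seen. It had 9.43, 10.09 and 9.31 in duplication and 9.80, 9.69 and 9.69 in wild-type mice, so duplication replicate 2 was highest and the other duplication mice lowest. Its log2 fold change of -0.12 (SE 0.20) was -0.36 without duplication replicate 2, 0.03 without duplication replicate 3 and 0.12 with the regional score.

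Of the remaining factors, Auts2, an activator partner of a Polycomb complex, had a log2 fold change of -0.07 (interval -0.42 to 0.27), with duplication replicate 3 the lowest mouse at 7.93 against 8.21 to 8.44 in the other 5. Ankrd11, a cofactor of histone deacetylases whose loss causes KBG syndrome, had -0.06 (-0.27 to 0.16). En2, a homeobox factor of midbrain and cerebellum, had values of 3.07 to 3.37 in all 6 mice, below the array medians, and a log2 fold change of 0.00 (-0.23 to 0.24). Means of 9 markers of cerebellum and midbrain were also low, at log2 values of 3.42 to 3.86.

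**Figure D2:**
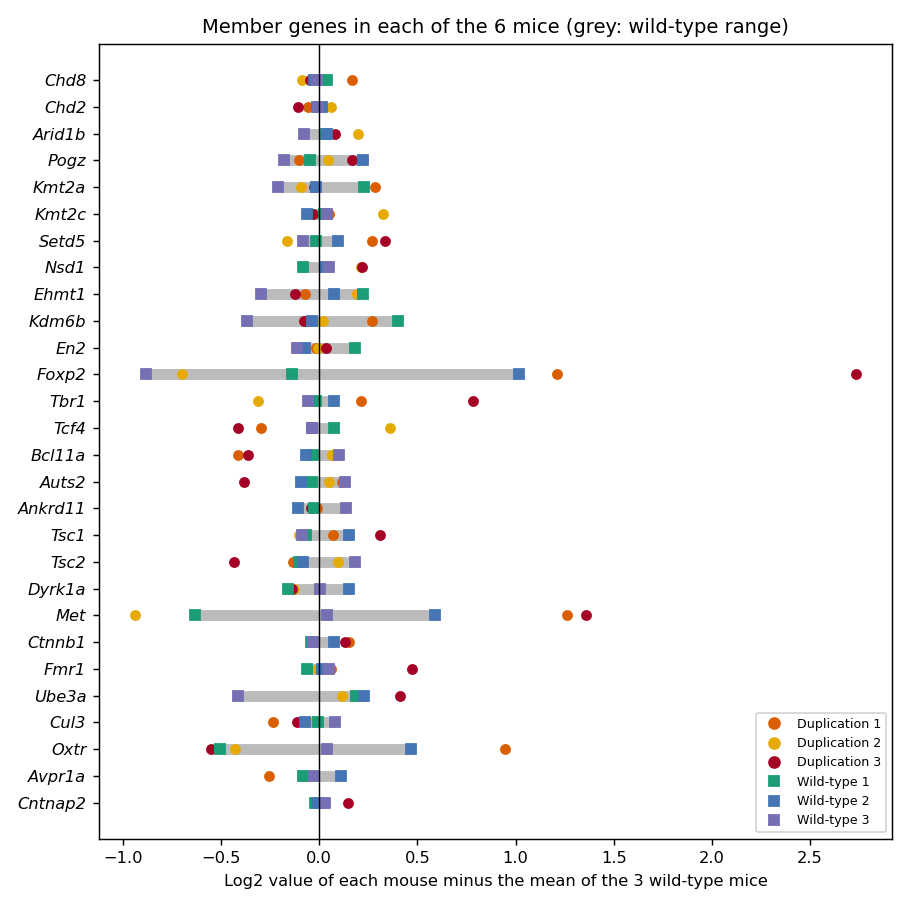
Log2 value of each mouse minus the mean of the 3 wild-type mice for the 28 members, with duplication mice as circles, wild-type mice as squares and the wild-type range as a grey bar. Foxp2 reaches from -0.88 to 2.74, and duplication replicates 2 and 3 lie on opposite sides of the wild-type mean in 17 of the 28 genes. That pattern was not counted over all genes.

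Of the growth signalling genes, Tsc1 and Tsc2 encode the partners of the complex that switches off Rheb and so mTOR. Tsc1 had log2 values of 6.58, 6.41 and 6.82 in duplication and 6.44, 6.66 and 6.42 in wild-type mice, and its log2 fold change was 0.09 (SE 0.13, adjusted p = 0.994). Tsc2 had values of 6.55, 6.78 and 6.25 in duplication and 6.58, 6.60 and 6.87 in wild-type mice, and its log2 fold change was -0.16 (SE 0.15, adjusted p = 0.994). Duplication replicate 3 was the highest mouse for Tsc1 and the lowest for Tsc2, and the log2 fold change of Tsc2 was -0.02 without it. Met, the receptor of hepatocyte growth factor, had values of 4.91, 2.71 and 5.0 in duplication and 3.02, 4.24 and 3.69 in wild-type mice. Duplication replicates 1 and 3 were the highest of the 6 and duplication replicate 2 the lowest, a range of 2.30. The log2 fold change of 0.56 (SE 0.63, adjusted p = 0.994) was 1.31 without duplication replicate 2, 0.16 without duplication replicate 3, 0.21 without duplication replicate 1 and -0.17 with the regional score. Dyrk1a, a kinase of the Down syndrome region that acts by dose, had a log2 fold change of -0.14 (interval -0.37 to 0.09), with duplication values of 6.83 to 6.84, inside the wild-type range of 6.81 to 7.12. Ctnnb1, which encodes beta-catenin, had 0.08 (-0.12 to 0.29).

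In the group of translation and protein turnover, Fmr1, the fragile X gene, had log2 values of 7.73, 7.65 and 8.14 in duplication and 7.60, 7.68 and 7.72 in wild-type mice. The mouse with Xist, duplication replicate 1, lay 0.06 above the wild-type mean for this X-linked gene, and duplication replicate 3 lay 0.47 above it. The log2 fold change of 0.17 (SE 0.14, adjusted p = 0.994) was 0.02 without duplication replicate 3. Ube3a, the imprinted ubiquitin ligase of Angelman syndrome, had values of 8.62, 8.51 and 8.80 in duplication and 8.58, 8.62 and 7.98 in wild-type mice. Wild-type replicate 3 was the 1 low mouse, and the log2 fold change of 0.25 (SE 0.18, adjusted p = 0.994) was 0.04 without it. Cul3, the scaffold of a family of ubiquitin ligases, had a log2 fold change of -0.13 (interval -0.34 to 0.07).

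Oxtr and Avpr1a encode the related receptors of oxytocin and vasopressin, peptides of social behaviour. Oxtr had log2 values of 5.41, 4.04 and 3.91 in duplication and 3.96, 4.93 and 4.50 in wild-type mice, a range of 1.5, in which the duplication mice held both the highest and the lowest value. Its log2 fold change was -0.01 (SE 0.42, adjusted p = 0.998), with an interval of -1.01 to 0.99, and it became -0.49 when replicate 1 was left out and 0.26 when replicate 3 was. Unlike Foxp2 and Met, Oxtr was low in duplication replicate 3. Avpr1a had values of 2.97, 3.15 and 3.14 in duplication and 3.14, 3.33 and 3.20 in wild-type mice, all below the array medians, and the difference was -0.14 on the log2 scale (SE 0.09, adjusted p = 0.994). Cntnap2, a neurexin-like adhesion protein that clusters potassium channels on axons, had a log2 fold change of 0.04 (interval -0.15 to 0.24), and 90.4% of all genes had a larger spread within groups.

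Spread between mice was therefore uneven among the members. The range over the 6 mice exceeded 1 on the log2 scale in 4 of the 28, Foxp2, Met, Oxtr and Tbr1, or 14.3% against 6.31% of all genes, and the median range was 0.45 against 0.37. Duplication replicates 2 and 3 lay on opposite sides of the wild-type mean in 17 members. Duplication replicate 3 was the highest and replicate 2 the lowest mouse in 4, and the reverse held in 2. These patterns were not counted over all genes, so they cannot be called particular to the members. Without duplication replicate 2, both remaining duplication mice lay outside the wild-type range on the same side in 12 of 28 members, 6 above and 6 below, against 24.9% of all genes. In that fit 6 members passed an unadjusted 0.05, Bcl11a, Met, Tcf4, Setd5, Foxp2 and Tbr1, against 8.15% of all genes, and limma called 0 of 28 after adjustment. The 2 mice behind these values are the 1 against its sex label and the 1 with the highest regional markers. With duplication replicate 1 or 3 left out instead, 0 of 28 members passed an unadjusted 0.05, against 2.64% and 2.15% of all genes, and limma called 0 after adjustment.

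**Figure D3:**
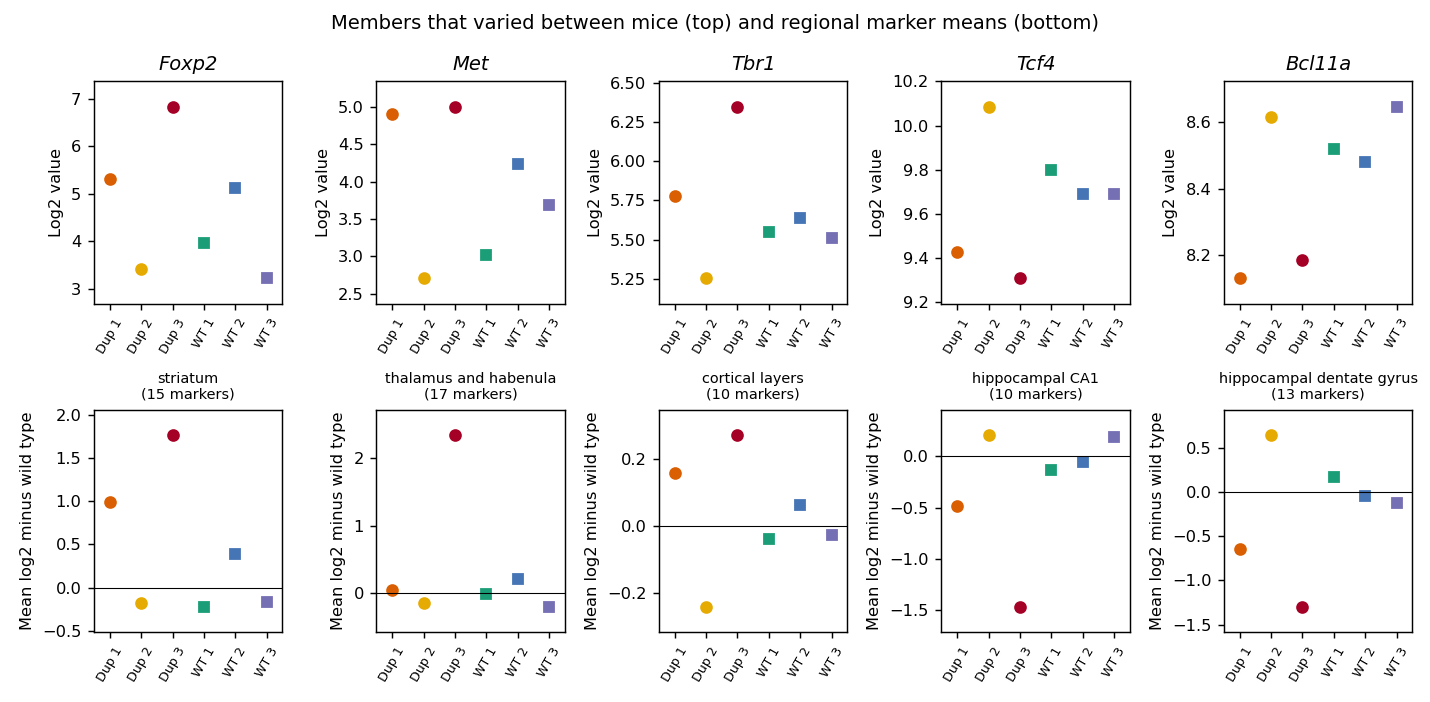
Log2 values of 5 members in each mouse (top) and, below, the mean log2 value of regional marker lists minus the wild-type mean, with the number of markers; Dup and WT are duplication and wild-type replicates. Duplication replicate 3 is highest for Foxp2, Met, Tbr1 and for striatal and thalamic markers, and lowest for Tcf4 and for CA1 and dentate markers.

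Most members were measured by more than 1 probe set, which read different stretches of a transcript. The 28 genes had 94 probe sets, and 23 genes had more than 1. Of the 66 probe sets other than the brightest, 20 had a log2 fold change of opposite sign and 3 an unadjusted p under 0.05, against 2.82% of all probe sets. Among all 94, 2 had groups that did not overlap, against 8.01% of all probe sets, and both were lower in duplication mice, against 4.61%. After adjustment limma called 0 of the 94, with a smallest adjusted p of 0.994. By limma the 3 were a dim probe set of Chd8 at -0.32 (SE 0.09, unadjusted p = 0.00783), a dim 1 of Nsd1 at 0.43 (SE 0.17, unadjusted p = 0.0356) and 1 of Bcl11a at -0.32 (SE 0.12, unadjusted p = 0.0372). The Nsd1 one had a mean log2 value of 2.93, below the array medians, where the brightest of that gene gave 0.12. The Chd8 one differed in sign from the brighter probe set of the gene and had values of 3.10 to 3.28 in duplication and 3.42 to 3.54 in wild-type mice, below the array medians. The Bcl11a one had values of 5.58, 6.05 and 5.73 in duplication and 6.09, 6.11 and 6.12 in wild-type mice, the same direction as the brightest at -0.24.

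For Foxp2 the 3 brightest probe sets gave 1.08, 1.05 and 1.11 and the same order of duplication mice, while its 3 dimmest gave 0.05 to 0.10. The 5 bright probe sets of Tcf4 gave -0.15 to -0.07. Signs were opposite to the brightest probe set in 1 of Chd2 (0.27), 1 of Pogz (-0.14), 1 of Kmt2a (0.00 below 0), 1 of Nsd1 (-0.04), 1 of Setd5 (-0.07), 1 of Bcl11a (0.03), 2 of Fmr1 (-0.08 and -0.01) and 1 of Cntnap2 (-0.25). They were opposite as well in 5 of Ankrd11 (0.04 to 0.28), 3 of Auts2 (0.06 to 0.20), 2 of Dyrk1a (0.05 and 0.21) and the 1 of Chd8 given above. Of these, the probe set of Cntnap2 at -0.25 had duplication values of 7.26, 7.20 and 6.93 and wild-type values of 7.17, 7.55 and 7.42. Wild-type replicate 3 was the lowest of the 6 mice at 32 of the 94 probe sets, or 34.0%, against 19.1% of all probe sets, among them all 6 of Ube3a and 3 of 4 of Kmt2c. A probe set of Kmt2c read 5.73 there against 6.48 to 6.91 in the other mice, and 1 of Ankrd11 read 6.49 against 7.13 to 7.37. The 3′ minus 5′ log2 value of control probe sets is a sign of RNA quality. For actin it was 1.45 in wild-type replicate 3 and 1.47 in duplication replicate 2, within 1.45 to 1.74 over the 6 mice. For Gapdh it was 0.38 in wild-type replicate 3, inside a range of 0.33 to 0.57. The actin value of wild-type replicate 3 was the lowest of the 6 mice. So was its share of probe sets at a log2 value of 6 or more, 23.9%. Its array weight in limma, 0.65, was also the lowest, with duplication replicate 2 next at 0.68. The part of RNA quality in the low values of wild-type replicate 3 was not tested.

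**Figure D4:**
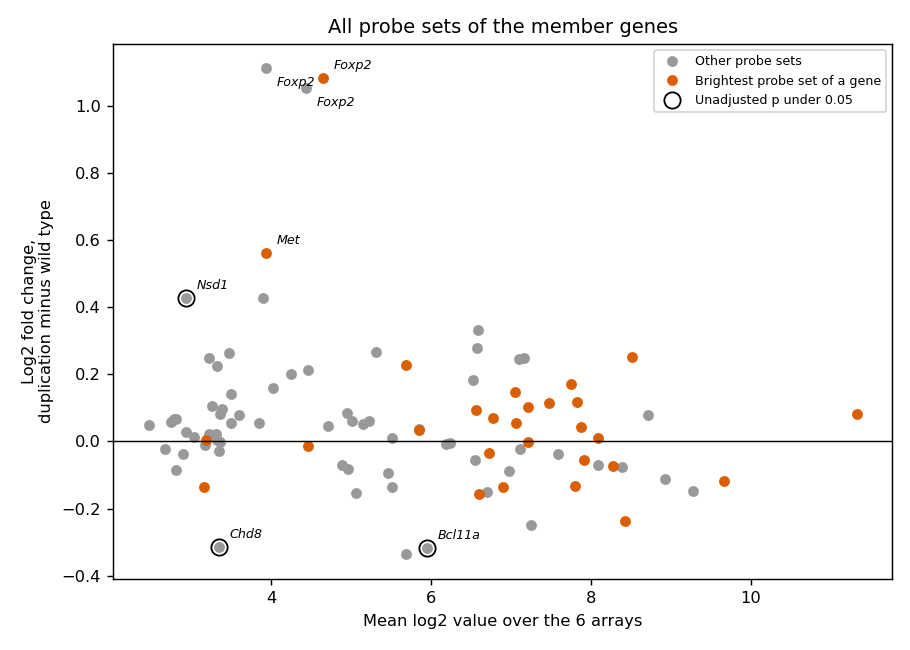
Log2 fold change against mean log2 value over the 6 arrays for all 94 probe sets of the 28 members, with the brightest probe set of each gene in orange and open circles around the 3 with an unadjusted p under 0.05. Most points lie near 0, Foxp2 and Met stand above, and the 3 circled probe sets belong to Nsd1, Chd8 and Bcl11a.

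Other genes of the same complexes and pathways were examined in 15 lists, chosen by function but with earlier results of these data known. Of 274 genes, 251 were measured, and limma called 0 of them after adjustment over all probe sets. At an unadjusted p under 0.05 there were 16, or 6.37% against 3.17% of all genes, with 8 higher and 8 lower, against 1.15% and 2.01% of all genes, and the plain equal-variance statistic gave 6, against 3.78%. The 251 had a median log2 fold change of -0.01, with 117 higher and 134 lower. Groups did not overlap in 7 genes that were higher and 13 that were lower, against 2.7% and 5.59% of all genes. Leaving out each mouse in turn moved the 16 to between 3 and 37. The count was 3 (duplication replicate 1), 37 (duplication replicate 2), 4 (duplication replicate 3) or 3 (wild-type replicate 3), where 2.64%, 8.15%, 2.15% and 2.26% of all genes passed. Without wild-type replicate 1 or 2 the count lay inside that range, and 4.93% and 2.79% of all genes passed. With the regional score as a covariate there were 4, against 3.14% of all genes. The genes below are named by the smallest unadjusted p of each list, and none passed the adjustment.

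Among partners of the chromatin members, 25 BAF subunits had a median log2 fold change of -0.01 with 12 higher, led by Pbrm1, a bromodomain subunit, at 0.35 (SE 0.14), with Smarcd1 at 0.28 and Smarce1 at 0.13. The other 7 CHD genes were between -0.06 and 0.12, with Chd7, the CHARGE syndrome gene, at 0.12, Chd3 at 0.09 and Chd1 at 0.05. In 17 genes of the KMT2 and SET1 complexes the median was -0.05 with 5 higher. Dpy30, a core subunit of these complexes, had -0.20 (SE 0.08), Kdm6a 0.47 (SE 0.18) and Kmt2d 0.16. Kdm6a, a demethylase encoded on the X, had its highest log2 value, 6.33, in the mouse with Xist, against 5.28 to 6.01 in the others, and its log2 fold change was 0.31 without that mouse. Of 14 genes of H3K36 and H3K9 methylation 8 were higher, with Cbx3 at 0.12, Wiz at 0.14 and Kdm2a at -0.12. Of 18 Polycomb genes 7 were higher, with Ezh1, a methyltransferase of the repressive mark, at -0.29 (SE 0.10), Cbx6 at 0.18 and Cbx7 at -0.26. The 7 genes of the NCoR and HDAC3 corepressor were near 0, with Hdac3 at -0.08, Ncoa2 at 0.10 and Ncoa1 at -0.12.

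The 21 other forebrain transcription factors ran from -0.97 to 0.84, and 7 of them had an interval inside 1.5-fold, against 23 of the 28 members. Ctbp2, a corepressor, had a log2 fold change of -0.38 (SE 0.12), Fezf2, a factor of deep cortical and hippocampal neurons, of -0.79 (SE 0.30) and Sox5 of 0.34 (SE 0.14). Fezf2 had values of 5.65, 6.29 and 5.17 in duplication and 6.47, 6.16 and 6.85 in wild-type mice. It was lowest in duplication replicate 3, which also had the lowest CA1 and dentate marker means. Fezf2 is itself among the markers of cortical layers, whose mean was highest in that mouse, 0.27 above the wild-type mean.

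For growth signalling, 21 genes of the mTOR pathway had a median of 0.01 with 12 higher. Pik3r1, the regulatory subunit of PI3 kinase, had log2 values of 7.65, 7.15 and 7.66 in duplication and 6.93, 7.06 and 6.90 in wild-type mice, with every duplication mouse above every wild-type mouse (log2 fold change 0.52, SE 0.15, adjusted p = 0.994 by limma). Pik3cb had -0.25 and Rps6 -0.18. In 31 Wnt and beta-catenin genes the median was 0.00, with Dkk3, a secreted Wnt modulator found in hippocampal pyramidal cells, at -0.74 (SE 0.24), Apc, which holds beta-catenin for degradation, at 0.46 (SE 0.17) and Fzd1 at 0.31. The largest value in that list was 1.29, for Tcf7l2. Tcf7l2 and Lef1 are also among the thalamus and habenula markers, so this list shares genes with the regional score. Around Met, Mst1 had -0.26, Spry2, an inhibitor of receptor kinases, 0.29 and Mst1r -0.21, with 4 of 13 higher. Mst1 and Mst1r were dim, at log2 values of 2.83 to 3.34 and 3.21 to 3.59, below the array medians. Of the 13, 6 had a mean log2 value under 4. In the list of DYRK1A and NFAT 3 of 13 were higher, with Dyrk3 at -0.34, Nfatc2 at -0.34 and Nfatc1 at 0.14. The log2 values of Nfatc1 were 3.78 to 4.11, near the array medians.

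Among 14 partners of FMRP and translation 6 were higher, with Eif4a2 at -0.15, G3bp2 at -0.17 and Fxr1, the autosomal relative of Fmr1, at -0.11. Of 23 genes of ubiquitin ligases 10 were higher, with Rbx1, the RING partner of cullins, at 0.40 (SE 0.16), Cand1 at -0.16 and Nedd8 at -0.12. Rbx1 was dim, with log2 values of 3.42 to 4.25, near the array medians. Of 11 genes of oxytocin and vasopressin signalling 3 were higher, with Avpr2 at -0.27, Oxt at -0.23 and Plcb4, a phospholipase of thalamic neurons, at 0.81. Plcb4 read 9.12 in duplication replicate 3 and 6.04 to 7.01 in the other mice. Of 16 contactin and CNTNAP family genes 10 were higher, with Cntn2 at 0.30, Cntn6 at 0.71 (SE 0.51) and Dlg2 at 0.20.

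**Figure D5:**
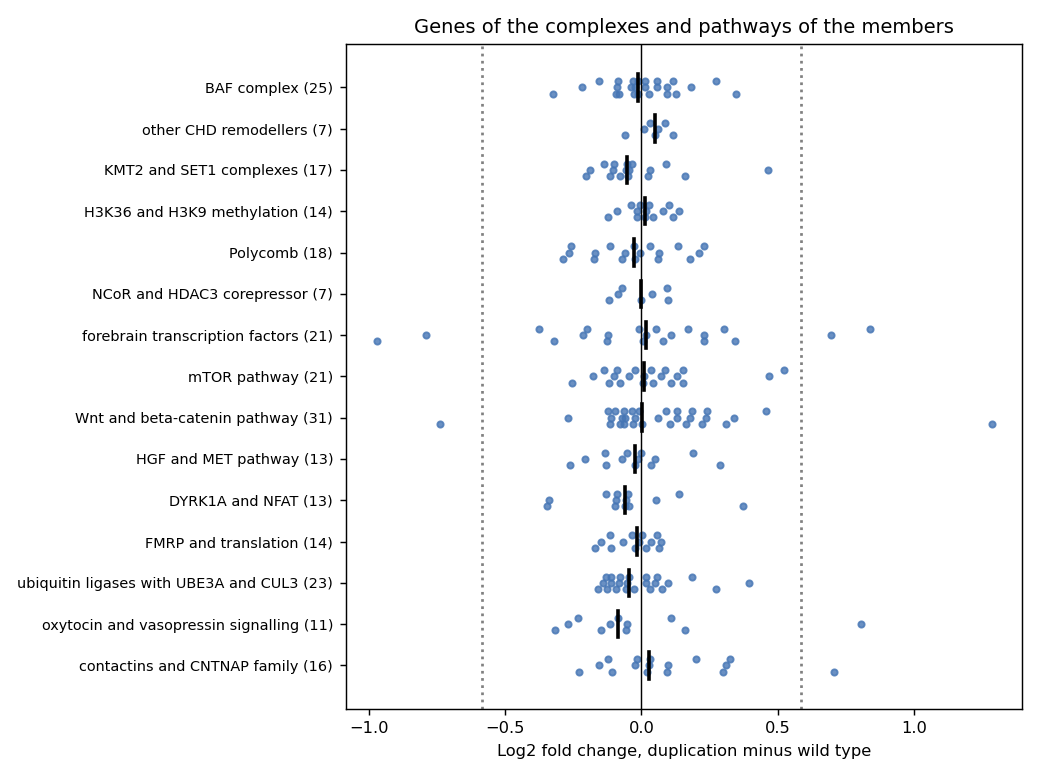
Log2 fold change, duplication minus wild type, of the measured genes in 15 lists of complexes and pathways around the members, with the number of genes in brackets, black bars for list medians and dotted lines at 1.5-fold. List medians lie between -0.08 and 0.05, and the widest spread is seen in forebrain transcription factors and Wnt genes.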

How the data were processed

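The authors deposited log2 values, 1 per probe set, made with RMA per the submitters' processing notes, which corrects background, normalizes over the arrays and summarises probes. No version of it is stated in the labels. The deposited values were used as they were, with no further normalization. Of 45101 probe sets, 64 controls were left out and 45037 tested, of which 34945 had 1 gene symbol, 932 several and 9160 none. Through Entrez identifiers, 34741 of these 34945 were matched to a RefSeq gene table of GRCm38.p6, used for symbols, chromosomes and gene order. Each gene was taken by its brightest probe set.

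Duplication was compared with wild type with limma 3.58.1 in R 4.3.3 (lmFit, eBayes, no covariate, two-sided, 7.11 degrees of freedom), with Benjamini-Hochberg adjustment over all probe sets and a threshold of 0.05. The fit was tested on simulated data. Replicates are separate mice, numbered in order of record. The members and lists were chosen with earlier results of these data known. Every member is named. Those with an unadjusted p under 0.05 or groups that do not overlap, the 8 with the largest change and the pairs Tsc1 and Tsc2, Kmt2a and Kmt2c, Chd8 and Chd2, and Oxtr and Avpr1a have full values. In each pathway list the 3 genes with the smallest p are named with their log2 fold change, and only some with further values. Alternatives were filters at 4 and 6, other scalings, variance models, probe set choices, a regional covariate and each mouse left out. Arrays give no counts, so the number of arrays limits the precision.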

Additional observations from a re-analysis of the deposited data

How the results depend on the processing

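Among members and pathway genes, limma called 0 after adjustment in all fits run. An unadjusted p under 0.05 was reached by 1 member with the regional score (Kmt2c, 0.23), where 3.14% of all genes passed, and by 0 to 6 with a mouse left out, the 6 without duplication replicate 2, where 8.15% of all genes passed. Members whose groups did not overlap numbered 1 after centring array medians, 1 for means over a gene's probe sets, and 0 to 12 with a mouse left out. The 12 came without duplication replicate 2, where the groups of 24.9% of all genes did not overlap. For the other settings the share over all genes was not computed, so their counts are not read further. The pathway count of 16 was 8 and 10 with filters at a mean log2 value of 4 and 6 (2.63% and 3.04% of the genes kept passed), 6 with the plain equal-variance statistic, 4 with the regional score and 3 to 37 with a mouse left out. The median of the members was 0.01 to 0.06 in all fits with 2 or more duplication mice.

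The sign was kept in every setting by 6 members (Arid1b, Avpr1a, Cul3, Kmt2c, Nsd1 and Ube3a) and turned in at least 1 by the other 22. Centred medians turned the log2 fold change of En2 to -0.0044, cyclic loess that of Ehmt1 to 0.021, and array weights En2 to -0.015, Oxtr to 0.29 and Pogz to -0.041. With the regional score, 14 turned: Auts2 to 0.083, Chd2 to 0.016, Cntnap2 to -0.0064, Ehmt1 to 0.085, En2 to -0.0038, Foxp2 to -0.084, Met to -0.17, Oxtr to 0.043, Pogz to -0.031, Setd5 to -0.014, Tbr1 to -0.12, Tcf4 to 0.12, Tsc1 to -0.050 and Tsc2 to 0.022. Means over a gene's probe sets turned Ankrd11 to 0.075, Auts2 to 0.037, Chd2 to 0.12, Cntnap2 to -0.067, Dyrk1a to 0.043 and Pogz to -0.0062. The cause was not tested.

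With a mouse left out, 14 members turned, and their ranges were -0.11 to 0.013 for Ankrd11, -0.17 to 0.083 for Auts2, -0.083 to 0.0014 for Chd2, -0.067 to 0.059 for Chd8, -0.0069 to 0.071 for Cntnap2, -0.15 to 0.11 for Ehmt1, -0.051 to 0.095 for En2, -0.11 to 0.27 for Kdm6b, -0.060 to 0.17 for Kmt2a, -0.49 to 0.26 for Oxtr, -0.054 to 0.15 for Pogz, -0.048 to 0.50 for Tbr1, -0.36 to 0.031 for Tcf4 and -0.014 to 0.19 for Tsc1.

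Duplication replicate 2 was also set alone against the wild-type mice, a choice made after seeing the data, as values with no test. The median of the members was then -0.011, 11 of 28 lay outside the wild-type range, against 48.8% of all genes, and 17 turned: Auts2 to 0.049, Bcl11a to 0.067, Chd2 to 0.062, Chd8 to -0.085, Cntnap2 to -0.0080, Ctnnb1 to -0.032, Ehmt1 to 0.19, En2 to -0.0040, Fmr1 to -0.014, Foxp2 to -0.70, Kmt2a to -0.091, Met to -0.94, Setd5 to -0.17, Tbr1 to -0.31, Tcf4 to 0.36, Tsc1 to -0.10 and Tsc2 to 0.097. Signal over background limits the 7 members with a mean log2 value under 6.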
